A study of Mus musculus with 6 samples.

Results

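Medium spiny neurons are the projection neurons of the striatum, and the 35 genes described here are markers and signalling components of those cells, taken from the gene-level counts by symbol. All 35 were found among the 55604 gene identifiers, and each had at least 1 read in some library. The list was drawn up by name, with no threshold on a measured value. By the cell type each is known to mark, 5 are D1-type genes (Drd1, Tac1, Isl1, Ebf1, Chrm4) and 6 are D2-type genes (Drd2, Penk, Adora2a, Gpr6, Six3, Gprin3). The other 24 belong to both types or to neither in particular.

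The 6 libraries were made from brain RNA of C57BL/6 mice. Of these, 3 came from mice given an intraperitoneal injection of 4-aminopyridine (4-AP), a potassium channel blocker that the series used to induce status epilepticus, and 3 came from untreated mice, the controls. All 6 RNAs, controls included, were digested with RNase R, which degrades linear RNA and spares circles, so a gene's count mixes its circular RNA with the linear RNA that survived. The labels give neither the brain region, the age, nor the time after injection, and do not say whether every library had its own animal, so a p-value here reflects the spread among the 6 libraries, which may be technical. The 4-AP libraries held 1839831, 2721287 and 1507882 counts, and the control libraries 2828471, 3409055 and 2355610. Levels are given as CPM, a gene's count per 1e+06 counts of its library after scaling for library composition, and a count of 3 corresponded to 0.778 to 2.19 CPM, depending on the library. In bulk RNA, fewer cells of a type and less RNA per cell cannot be told apart.

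Medium spiny neurons of the direct pathway carry the D1 dopamine receptor, which stimulates adenylyl cyclase, and release substance P. Those of the indirect pathway carry the D2 dopamine receptor, which inhibits it, together with the adenosine receptor that stimulates it, and release enkephalin. In both, cAMP drives protein kinase A, whose substrate DARPP-32, the product of Ppp1r1b, becomes an inhibitor of protein phosphatase 1. Cyclic AMP acts on genes through the cAMP response element, and retinoic acid through the receptors that Rarb and Rxrg encode.

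Control replicate 1 stood apart from the other 5 libraries in these genes. It had the lowest level of 33 of the 35, and was lowest for 15.8% of all tested genes. Its median member was at 22.5% of the mean of the other libraries. Adora2a, the adenosine receptor gene, was at 1.67% there, Drd1 at 6.00% and Penk at 7.10%, while Chrm4 was at 80.8% and Zfp503 at 101%. The 4-AP comparison of the members is therefore given with and without that library. No member passed the test in either comparison, at an adjusted p threshold of 0.05 over all genes tested.

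Promoter sequences are shown for the dopamine receptor genes that define the types, for the members with the full cAMP or retinoic acid element (Gpr6 and Rarb), and for Tac1, a D1-type gene with the cAMP half-site. They come from RefSeq (GRCm38.p6), whose windows run from 250 bases before a gene's start to 50 bases after it. Of the 35 members, 28 matched a window. Only the 250 bases before the start are printed, 5′ to 3′ on the gene's strand. The windows printed are chr13:54055659-54055908 (minus strand) for Drd1, the outer of its 2 windows, and chr9:49340153-49340402 (plus strand) for Drd2. Those of the other genes are chr6:7554811-7555060 (plus strand) for Tac1, chr10:41072291-41072540 (minus strand) for Gpr6, and chr14:16575477-16575726 (minus strand) for Rarb. Capitals mark TGACGTCA in Gpr6, its half-site TGACG, read on the other strand as CGTCA, in Tac1, and the direct repeat GGTTCA and AGTTCA, spaced by 5 bases, in Rarb.
Drd1: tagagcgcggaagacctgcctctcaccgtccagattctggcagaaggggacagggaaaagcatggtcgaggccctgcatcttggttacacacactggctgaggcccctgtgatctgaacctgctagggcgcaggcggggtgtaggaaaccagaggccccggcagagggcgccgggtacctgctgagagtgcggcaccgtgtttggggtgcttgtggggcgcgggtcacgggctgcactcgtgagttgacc
Drd2: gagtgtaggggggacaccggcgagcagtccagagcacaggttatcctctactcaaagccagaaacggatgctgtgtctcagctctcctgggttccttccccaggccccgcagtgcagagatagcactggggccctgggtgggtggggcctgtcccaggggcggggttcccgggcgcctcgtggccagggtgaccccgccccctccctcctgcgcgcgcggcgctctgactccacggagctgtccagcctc
Tac1: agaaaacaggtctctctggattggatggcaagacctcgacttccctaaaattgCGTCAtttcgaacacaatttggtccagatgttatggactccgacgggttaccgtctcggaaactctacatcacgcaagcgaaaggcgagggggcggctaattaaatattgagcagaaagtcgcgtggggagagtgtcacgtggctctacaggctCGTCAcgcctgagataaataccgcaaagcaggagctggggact
Gpr6: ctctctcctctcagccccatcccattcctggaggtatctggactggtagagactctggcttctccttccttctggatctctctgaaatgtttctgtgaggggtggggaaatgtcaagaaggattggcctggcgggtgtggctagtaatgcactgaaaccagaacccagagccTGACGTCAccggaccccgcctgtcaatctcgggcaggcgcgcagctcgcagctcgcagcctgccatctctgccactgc
Rarb: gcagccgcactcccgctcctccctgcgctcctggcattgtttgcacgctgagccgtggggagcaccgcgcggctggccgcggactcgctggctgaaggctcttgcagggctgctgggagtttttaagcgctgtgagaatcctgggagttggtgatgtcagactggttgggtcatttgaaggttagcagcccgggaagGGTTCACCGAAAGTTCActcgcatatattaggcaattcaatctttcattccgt

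Each motif was searched on both strands of all 32851 windows. The full cAMP response element, TGACGTCA, was in 1.79% of windows and, among the members, in Gpr6 only. Its half-site TGACG, which the full element contains, was in 20.8% of windows and in 7 of the 28 members (Arpp21, Ebf1, Foxp1, Gng7, Gpr6, Isl1 and Tac1). The retinoic acid half-site AGGTCA was in 16.3% of windows and in 4 members (Actn2, Arpp19, Arpp21 and Rxrg). The direct repeat of GGTTCA and AGTTCA spaced by 5 bases, the retinoic acid response element known from the Rarb promoter, was in 2 of all windows (0.00609%), and Rarb held 1 of them. These matches describe letters in a window, and no binding or methylation was measured. The Drd1 and Drd2 windows held neither form of the cAMP element.

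Neither dopamine receptor gene passed the test of 4-AP against control. Drd1 (chr13:54051183-54055705, minus strand, mm10) had 50.2, 66.8 and 53.4 CPM in the 4-AP libraries, against 3.77, 63.5 and 80.3 CPM in the controls. The 4-AP libraries lay inside the control range, whose low end was control replicate 1, with 12 reads. The log2 fold change, 4-AP over control, was 0.24 (SE 0.99) with all libraries and -0.31 (SE 0.20) without control replicate 1. Drd2 (chr9:49340627-49408177, plus strand) had 14.99, 22.9 and 19.0 CPM in the 4-AP libraries, against 3.14, 16.1 and 23.2 CPM in the controls. Its log2 fold change was 0.48 (SE 0.57) with all libraries and 0.01 (SE 0.29) without control replicate 1. Both receptor genes thus had overlapping groups, and the lowest of the 6 libraries was control replicate 1 for each.

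The other receptor genes split. Adora2a (chr10:75316877-75334784, plus strand) had 92, 287 and 67 reads in the 4-AP libraries, against 4, 219 and 242 in the controls. On the scaled level that is 59.98, 103 and 49.0 CPM in 4-AP and 1.26, 56.8 and 108 CPM in control. The 4 reads of control replicate 1 put it 59.9-fold below the mean of the other libraries, with an exact Poisson interval of 23.4 to 220, which covers counting error only. Gpr6, an orphan receptor that stimulates adenylyl cyclase in D2-type neurons, had 10.4, 16.8 and 7.31 CPM in the 4-AP libraries, against 3.14, 14.5 and 30.8 CPM in the controls. Chrm4, the M4 muscarinic acetylcholine receptor gene of D1-type neurons, had 29.99, 29.3 and 35.8 CPM in 4-AP and 28.3, 36.3 and 43.7 CPM in control. Chrm4 was the receptor gene for which control replicate 1 was closest to the other libraries, at 80.8% of their mean, and its 6 values spanned 1.55-fold, against 85.9-fold for Adora2a.

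The neuropeptide precursor genes were lowest in the same library. Penk, the enkephalin precursor (chr4:4133531-4138819, minus strand), had 116, 116 and 117 CPM in the 4-AP libraries, against 8.17, 90.5 and 135 CPM in the controls. The 4-AP libraries were almost equal, and the controls lay on both sides of them. Penk shares 14.3% of its exonic bases with A830012C17Rik, and the strand setting of the counting is not given in the sources used here. Tac1, the substance P precursor (chr6:7554879-7565834, plus strand), had 5.87, 15.4 and 15.4 CPM in the 4-AP libraries, against 0.629, 7.26 and 8.93 CPM in the controls. The groups overlapped through 4-AP replicate 1. The log2 fold change of Tac1 was 1.17 (SE 0.63) with all libraries and 0.64 (SE 0.42) without control replicate 1, with an adjusted p of 0.473 and 0.578 by edgeR's quasi-likelihood test.

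Several genes of the cAMP cascade were among the members with the most reads. Adcy5, the main striatal adenylyl cyclase, had 565, 782 and 634 CPM in the 4-AP libraries, against 270, 522 and 931 CPM in the controls. Gng7, the G protein gamma subunit through which these receptors reach that cyclase, had 156, 207 and 166 CPM in 4-AP and 67.6, 174 and 241 CPM in control. Ppp1r1b, the DARPP-32 gene (chr11:98348404-98357796, plus strand), had 153, 216 and 145 CPM in the 4-AP libraries, against 27.3, 161 and 300 CPM in the controls. In all of these the lowest and the highest library were both controls, replicates 1 and 3. Ppp1r1b shares 15.7% of its exonic bases with 1700003D09Rik on the other strand.

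The phosphodiesterases, which break down cyclic nucleotides, were also lowest in control replicate 1. Pde10a had 247, 404 and 289 CPM in the 4-AP libraries, against 74.5, 262 and 412 CPM in the controls. Pde1b, the calcium- and calmodulin-activated form, had 508, 768 and 504 CPM in 4-AP and 221, 544 and 732 CPM in control. Rgs9, which speeds GTP hydrolysis by inhibitory G proteins, had 45.0, 66.5 and 49.7 CPM in 4-AP and 6.60, 52.6 and 70.1 CPM in control. Rgs9 was lower in control replicate 1 than either phosphodiesterase in relative terms, at 11.6% of the mean of the other libraries, against 23.1% for Pde10a and 36.1% for Pde1b.

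Among the other phosphoproteins and enzymes of the cascade, Arpp21, Arpp19 and Ptpn5 differed less between libraries. Arpp21, a protein kinase A substrate that binds RNA and calmodulin, had 329, 384 and 287 CPM in the 4-AP libraries, against 263, 406 and 424 CPM in the controls. Arpp19, a phosphoprotein that inhibits protein phosphatase 2A once phosphorylated, had 82.8, 63.2 and 66.5 CPM in 4-AP and 51.2, 105 and 113 CPM in control. For both, control replicate 1 was below all 4-AP libraries and the other controls were above all of them. Ptpn5, the striatum-enriched tyrosine phosphatase, had 88.0, 106 and 118 CPM in 4-AP and 76.4, 101 and 146 CPM in control. Rasd2, a small GTPase known as Rhes, had 86.7, 108 and 102 CPM in 4-AP and 36.1, 89.0 and 174 CPM in control. With all libraries, Rasd2 had the fold change nearest to 0 of all tested members, 0.01 (SE 0.61) on the log2 scale. Without control replicate 1 it was -0.38 (SE 0.22).

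With all libraries, the members with every 4-AP library above every control were the transcription factor genes Isl1, Rxrg and Six3. Of the 33 tested members these make 2 (Isl1 and Rxrg), against 18.8% of all tested genes with groups apart in either direction. The groups of the transcription factor genes Rarb, Foxp1, Meis2, Ebf1 and Zfp503 overlapped. Isl1, which specifies D1-type neurons, had 6.52, 3.93 and 12.4 CPM in the 4-AP libraries, against 0.314, 1.82 and 0.446 CPM in the controls. In reads that is 10, 11 and 17 in 4-AP against 1, 7 and 1 in control, so control replicates 1 and 3 were under the floor of 3 counts. Its log2 fold change was 2.87 (SE 0.69; adjusted p = 0.054, edgeR), the smallest adjusted p among the members, and 2.48 (SE 0.78; adjusted p = 0.135) without control replicate 1. Isl1 is also expressed in other forebrain and hypothalamic neurons. The summed hypothalamic markers were 60.6, 49.3 and 78.2 CPM in the 4-AP libraries, against 18.5, 9.34 and 5.80 CPM in the controls. Of the 14 markers 4 had enough reads to be tested and 3 of these were called higher (Oxt, Avp and Trh). Pmch joined them without control replicate 1. The other tested marker, Pomc, had 6.52, 1.07 and 5.12 CPM in 4-AP and 14.5, 2.07 and 0.446 CPM in control. Its log2 fold change was -0.60 with all libraries and 1.44 without control replicate 1, and it was not called. Ghrh and Kiss1 had no read in any library, and Oxt, Hcrt, Gal and Sim1 none in the controls. Their part in the Isl1 difference was not tested.

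Rxrg, the retinoid X receptor gamma gene, had 15.6, 19.3 and 17.5 CPM in the 4-AP libraries, against 0.629, 14.8 and 13.8 CPM in the controls. Every 4-AP library was above every control, but the log2 fold change of 0.86 had an SE of 0.79, and without control replicate 1 it was 0.30 (SE 0.30). Six3, a homeobox gene of D2-type neurons, had 5, 25 and 8 reads in 4-AP and 0, 7 and 4 in control, too few to enter the test with all libraries. Without control replicate 1 its log2 fold change was 1.77 (SE 0.69; adjusted p = 0.258, edgeR). With 0 reads, Six3 in control replicate 1 was at least 4.59-fold lower than the mean of the other libraries, taking 3 counts as the floor of that library. Six3 shares 5.03% of its exonic bases with Gm28528 and Six3os1.

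Rarb, the retinoic acid receptor beta gene, had 78.9, 62.2 and 75.3 CPM in the 4-AP libraries, against 3.14, 49.5 and 89.7 CPM in the controls. It shares 38.4% of its exonic bases with Gm48162 and Top2b, so its level is uncertain. Foxp1, a forkhead factor of both neuron types, had 108, 104 and 113 CPM in 4-AP and 61.0, 97.5 and 133 CPM in control. Meis2, a homeobox gene, had 129, 100 and 119 CPM in 4-AP and 58.1, 122 and 134 CPM in control. Ebf1, a D1-type factor, had 4.56, 9.65 and 5.85 CPM in 4-AP and 5.03, 3.63 and 5.36 CPM in control. Zfp503, a zinc finger gene of striatal progenitors known as Nolz1, had 6.52, 8.58 and 5.85 CPM in 4-AP and 7.54, 6.22 and 10.3 CPM in control. Ebf1 and Zfp503 were the members whose lowest library was not control replicate 1, and their groups overlapped.

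The remaining members have structural or less settled roles. Scn4b, the sodium channel beta-4 subunit gene, had 485, 693 and 484 CPM in the 4-AP libraries, against 135, 494 and 879 CPM in the controls. Sh3rf2, which encodes a ubiquitin ligase, had 22, 20 and 17 reads in 4-AP and 1, 23 and 37 in control. Ido1, a tryptophan-degrading enzyme gene, had 2, 2 and 3 reads in 4-AP and 0, 4 and 3 in control, at or near the floor throughout, and entered no test. Gprin3, a gene of D2-type neurons, had 32.6, 44.0 and 31.4 CPM in 4-AP and 17.0, 38.4 and 42.8 CPM in control. Dclk3, a doublecortin-like kinase gene, had 56.1, 56.5 and 49.7 CPM in 4-AP and 28.6, 62.5 and 76.8 CPM in control. For Dclk3, as for Arpp21 and Arpp19, the 4-AP libraries lay between control replicate 1 and the other controls. Actn2, the alpha-actinin 2 gene, and Strip2, Syndig1l, Ankrd63, Dclk3 and Lrrc10b were lowest in control replicate 1, at 15.4% (Lrrc10b) to 47.4% (Dclk3) of the mean of the other libraries.

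**Figure D1:**
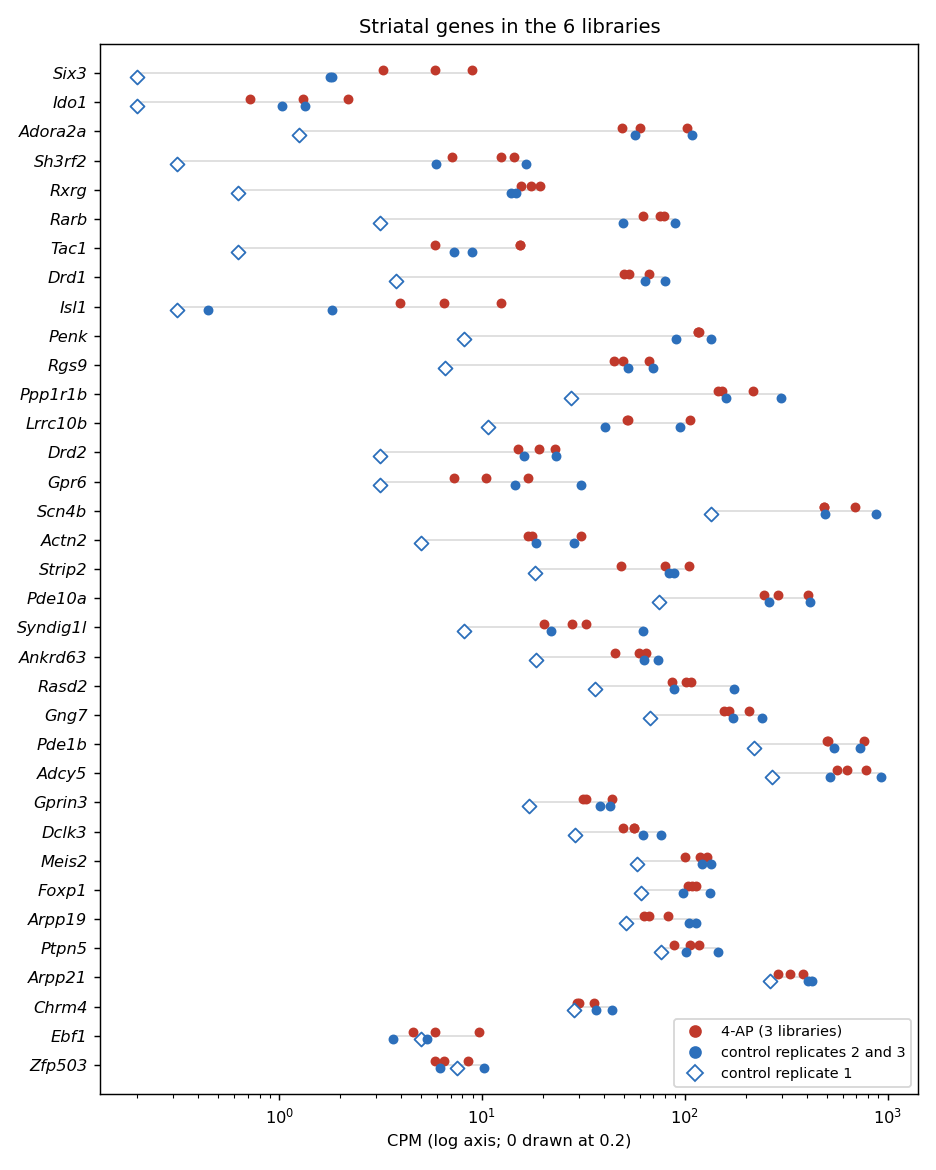
Level of each of the 35 striatal genes in the 6 libraries, in CPM on a log axis (red, 4-AP; blue circles, control replicates 2 and 3; open diamonds, control replicate 1; genes ordered by the level of control replicate 1 relative to the other libraries; a level of 0 is drawn at 0.2). Control replicate 1 lies to the left of the other libraries for 33 genes, from Six3 and Ido1 at 0 CPM at the top to Chrm4 at 28.3 CPM near the bottom.

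Levels of different genes were set side by side per kilobase of exonic sequence. By the mean of the 6 libraries, Scn4b (106 CPM per kb), Pde1b (101 CPM per kb) and Adcy5 (85.9 CPM per kb) were highest. Penk (59.5 CPM per kb) and Ppp1r1b (57.0 CPM per kb) followed. The ranges of all 5 over the libraries overlapped, for example 27.0 to 176 CPM per kb for Scn4b and 37.5 to 130 CPM per kb for Adcy5. Compared within each library, Pde1b was above Adcy5, and Adcy5 above Penk, in all 6. The order of Scn4b and Pde1b, and that of Penk and Ppp1r1b, changed between libraries. Drd1 (14.6 CPM per kb) and Drd2 (6.50 CPM per kb) stood in the middle, with ranges of 1.04 to 22.1 and 1.23 to 9.11 CPM per kb. Isl1 (1.07 CPM per kb), Six3 (0.662 CPM per kb), Ido1 (0.602 CPM per kb) and Ebf1 (0.582 CPM per kb) were lowest.

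Since RNase R spares circles, the exon number of the members is given as well. The 3 members with a single annotated exon (Chrm4, Ankrd63 and Lrrc10b) were at 11.1 to 28.3 CPM per kb. The 24 members with 4 or more exons were at 0.582 to 106 CPM per kb. The single-exon members thus lay within the range of the others.

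How far control replicate 1 differed was not the same for all members. There, 10 members were under 10% of the mean of the other libraries (Drd1, Tac1, Isl1, Penk, Adora2a, Six3, Rxrg, Ido1, Rarb and Sh3rf2). Another 10 were at 10 to 30%, among them Drd2, Gpr6, Rgs9 and Scn4b, and 10 were at 30 to 60%, among them Adcy5, Pde1b, Foxp1 and Meis2. The 5 over 60% were Ebf1, Chrm4, Arpp21, Ptpn5 and Zfp503. Several of the lowest rest on few reads: for Tac1, 2 reads gave 5.96% with an exact Poisson interval of 0.721 to 21.5%, and for Rxrg, 2 reads gave 3.88% with an interval of 0.469 to 14.0%. For Isl1, 1 read gave 6.25% with an interval of 0.158 to 34.8%, but control replicate 3 also had 1 read, and control replicate 1 was at 70.4% of that library. Those with more reads had narrower intervals, as Adcy5 at 39.3% (36.7 to 42.0%, 858 reads) and Ppp1r1b at 14.0% (11.2 to 17.3%, 87 reads). These intervals cover the counting error of control replicate 1 only. They leave out the spread of the other libraries, which ran from 522 to 931 CPM for Adcy5.

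Across the 33 members with enough reads to be tested, the median log2 ratio of control replicate 1 to the mean of the other 5 libraries was -2.05, and that of all 11388 tested genes was -0.0048. For the members the 4-AP libraries had medians of -0.13, 0.36 and 0.04, and control replicates 2 and 3 had -0.07 and 0.59. Control replicate 1 was the lowest library by at least 2-fold for 21 of the 33 tested members, against 0.782% of all tested genes. The opposite end was held by control replicate 3, which was the highest library for 24 of the 35 members. The share of all tested genes highest there was not counted. The median log2 ratio of that library was 0.59 for the members and -0.01 for all tested genes. The summed level of the members was 3687, 4931 and 3815 CPM in the 4-AP libraries, against 1518, 3827 and 5725 CPM in the controls, so that the lowest and the highest sum both came from untreated brain.

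**Figure D2:**
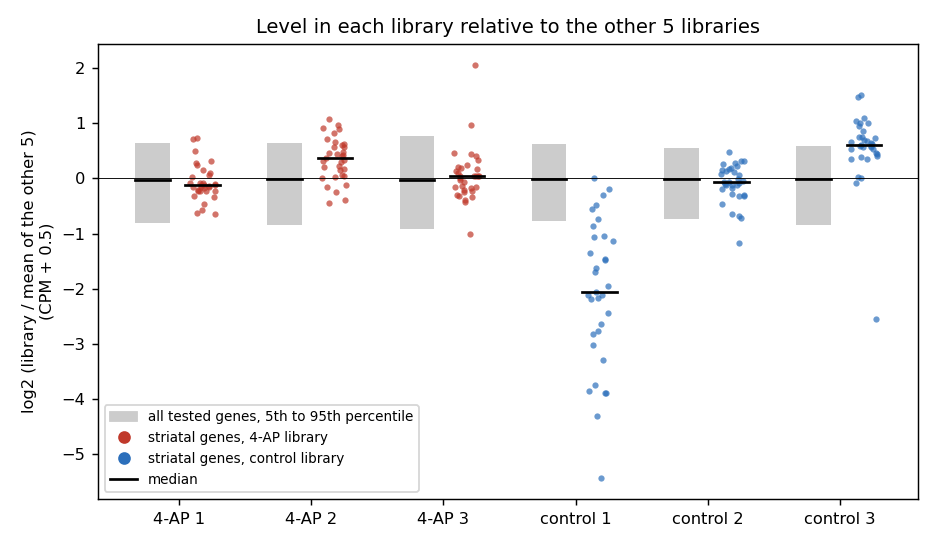
Log2 ratio of each library to the mean of the other 5, for the 33 tested striatal genes (points; red, 4-AP; blue, control) and all 11388 tested genes (grey, 5th to 95th percentile), with medians as black lines. The striatal median is -2.05 in control replicate 1 and lies between -0.13 and 0.59 in the other libraries.

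Genes outside the member list that were lowest in control replicate 1 were taken by their level there relative to the lowest of the other libraries. Among them, 6 had no read in control replicate 1: 1700003D09Rik, Arhgap36, Bst2, Cd4, Serpina9 and Six3os1. Pappa2, Slc35d3 and Slc5a7 were also among the lowest. Slc35d3, another gene of striatal neurons, had 5.22, 4.29 and 2.19 CPM in 4-AP and 0.314, 6.74 and 9.82 CPM in control. Since 1700003D09Rik overlaps part of Ppp1r1b on the opposite strand, reads in the shared bases cannot be assigned to either without the strand setting. Arhgap36 was low in all controls, with 14.99, 13.6 and 11.0 CPM in 4-AP and 0, 0.778 and 1.79 CPM in control, and was called higher in 4-AP (log2 fold change 4.02, adjusted p = 0.00123, edgeR; 3.44, adjusted p = 0.00271, without control replicate 1).

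The marker lists of other regions and cell types are given beside this. The summed thalamic markers were 82.8, 234 and 226 CPM in the 4-AP libraries, against 217, 50.1 and 55.3 CPM in the controls, so control replicate 1 was the highest control. Slc17a6, the vesicular glutamate transporter gene of thalamus and other subcortical regions, had 30.6, 29.3 and 54.1 CPM in 4-AP and 38.0, 5.19 and 10.7 CPM in control. The summed hippocampal markers were 258, 273 and 292 CPM in 4-AP and 383, 223 and 242 CPM in control, and Lct, a marker of dentate granule cells, had 0.652, 0.357 and 2.19 CPM in 4-AP and 25.8, 0 and 0.893 CPM in control. With all libraries, edgeR called none of the 6 thalamic and 4 hippocampal markers with enough reads to be tested. Without control replicate 1 it called Slc17a6 higher in 4-AP, by 2.31 on the log2 scale (SE 0.36; adjusted p = 0.00163), against 1.05 (SE 0.82; adjusted p = 0.687) with all libraries. Of the hippocampal markers, Tdo2 had reads in control replicate 1 only. The 4 tested hippocampal markers were not alike there. Control replicate 1 was at 263% of the mean of the other libraries for Prox1 and 218% for Fibcd1, but at 120% for Zbtb20 and 85.8% for Wfs1. The cortical markers summed to 2050, 1395 and 1501 CPM in 4-AP and 2714, 2594 and 2712 CPM in control, so every 4-AP library was below every control. All 12 cortical markers had a fold change below 0, with or without control replicate 1. Slc17a7, Neurod2 and Nrgn were called lower with all libraries, and without control replicate 1 the call on Neurod2 was lost (adjusted p = 0.0731, edgeR). The cortical transporter gene Slc17a7 had 658, 584 and 431 CPM in 4-AP and 938, 956 and 998 CPM in control. Astrocyte markers summed to 2492, 2758 and 2443 CPM in 4-AP and 3219, 3114 and 2971 CPM in control. Much of that sum was Slc1a2, with 1138, 1223 and 1035 CPM in 4-AP and 1703, 1782 and 1758 CPM in control. It was called lower with and without control replicate 1, and Slc6a11 was called higher without that library. Oligodendrocyte markers summed to 3163, 4148 and 3030 CPM in 4-AP and 4008, 2630 and 3494 CPM in control. With all libraries, 7 of the 10 astrocyte and 9 of the 10 oligodendrocyte markers had a fold change above 0, as did 5585 of all 11388 genes. The part of these lists in the level of the striatal genes was not tested.

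**Figure D3:**
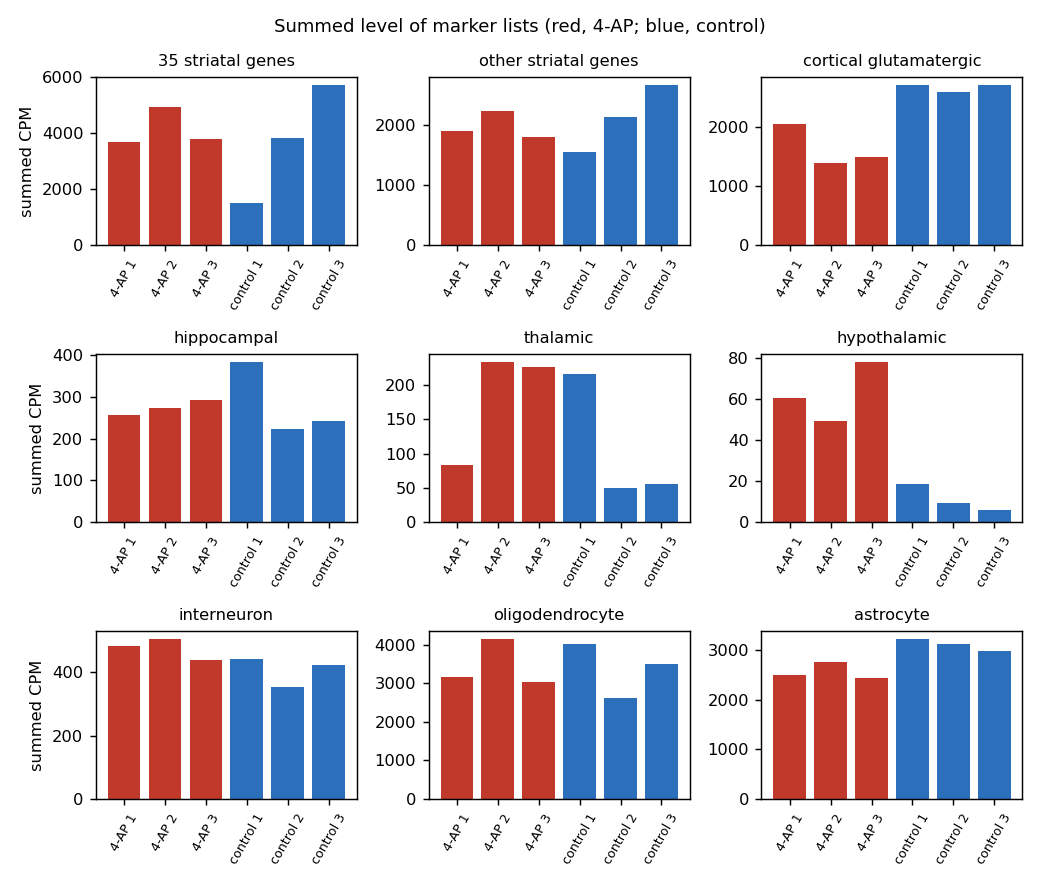
Summed CPM of 9 marker lists in the 6 libraries (red bars, 4-AP; blue bars, control; each panel has its own axis from 0). Control replicate 1 has the lowest sum of the 35 striatal genes, 1518 CPM, and the highest of the hippocampal list, 383 CPM.

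Comparing 4-AP with control asks which genes differ after induced seizures. With all 6 libraries, edgeR called 96 of 11388 genes (0.843%) and 0 of the 33 tested members. Of the called genes 38 were higher and 58 lower, a split that became 26 higher and 293 lower under scaling by total counts, and 91 higher and 36 lower without 4-AP replicate 2. At an unadjusted p under 0.05 there was 1 member, Isl1, against 13.9% of all tested genes. DESeq2, which gave no adjusted p for 10 of the members, Isl1 among them, called 0, and limma-voom called 0. Of the 33, 25 had a fold change above 0, as did 5585 of all 11388 genes, and the median log2 fold change was 0.21, against -0.01 for all tested genes. The fold changes ran from -0.36 (Gpr6) to 2.87 (Isl1). The call on Isl1 depended on the setting, with adjusted p-values between 0.00744 and 0.306 over the alternatives, but its fold change was above 0 in each of them. Isl1 and Rxrg had every 4-AP library above every control, which makes 2 of 33, against 18.8% of all tested genes whose groups did not overlap in one direction or the other. Six3, outside the test, also had its groups apart.

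Leaving out control replicate 1 lowered the fold change of 32 of the 33 members, while the median of all tested genes went from -0.01 to 0.00. Over the remaining 5 libraries, edgeR called 159 of 11520 genes (1.38%), 105 higher and 54 lower, and 0 of the 34 members then tested. There were 4 members at an unadjusted p under 0.05 (Isl1, Six3, Gpr6 and Arpp19), against 12.9% of all tested genes. DESeq2, which gave no adjusted p for 13 of the members, called 0, and limma-voom called 0. A fold change above 0 was left in 10 of the 34 and in 5825 of all 11520 genes, and the median was -0.14, against 0.00 for all tested genes. Isl1, Six3 and Rxrg had every 4-AP library above both controls, and Chrm4, Arpp21, Arpp19 and Dclk3 had every 4-AP library below both. These 7 of 34 compare with 29.2% of all tested genes. The smallest adjusted p was that of Arpp19 (log2 fold change -0.62, SE 0.19, adjusted p = 0.119).

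Without that library the log2 fold change of the D2-type Gpr6 was -0.85 (SE 0.37; adjusted p = 0.328, edgeR). For Penk the value was 0.60 (SE 0.94) with all libraries and 0.07 (SE 0.18) without control replicate 1. For Ppp1r1b it was 0.10 (SE 0.88) with and -0.40 (SE 0.23) without it, and for Adora2a 0.41 (SE 1.20) with and -0.16 (SE 0.32) without it. The sign thus turned for Adora2a and Ppp1r1b, as for 16 of the 33 members in all. How many of all tested genes changed sign was not counted. Several of the members that did started near 0, such as Ppp1r1b and Rasd2 (0.01). The median biological coefficient of variation of the members was 0.470 with all libraries and 0.171 without control replicate 1, and that of all genes was 0.182 and 0.174. The members thus spread more within groups than the median gene with control replicate 1 in the comparison, and about as much as the median gene without it. Control replicate 1 was the lowest library for 31 of the 33 tested members, against 15.8% of all tested genes. Removing it by itself lowers the spread and the fold changes of those members, so neither is a separate result.

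**Figure D4:**
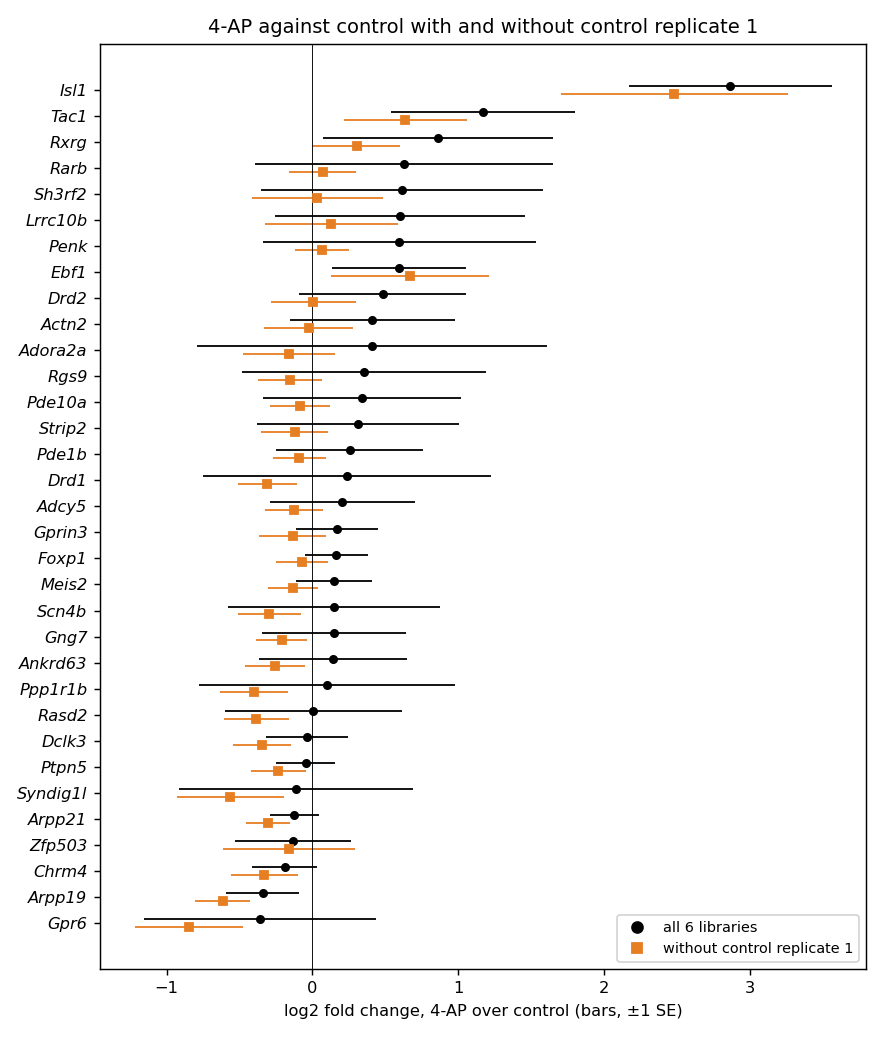
Log2 fold change, 4-AP over control, of the striatal genes with all 6 libraries (black) and without control replicate 1 (orange), with bars of 1 SE. The orange points lie to the left of the black ones for 32 of 33 genes, Ebf1 being the exception, and Isl1 is the gene farthest to the right in both (2.87 and 2.48).

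D1-type and D2-type genes were compared by their sums. The 5 D1-type genes summed to 97.1, 125 and 123 CPM in the 4-AP libraries, against 38.0, 113 and 139 CPM in the controls. The 6 D2-type genes summed to 237, 312 and 230 CPM in 4-AP and 32.7, 218 and 342 CPM in control. On the log2 scale, D1-type over D2-type was -1.29, -1.32 and -0.90 in 4-AP and 0.22, -0.95 and -1.30 in control. Control replicate 1 was the single library with a ratio above 0. The mean was -1.17 ± 0.23 in 4-AP and -0.68 ± 0.80 in control (SD, n = 3 each). The difference of -0.49 was smaller than the spread between the controls, and it was -0.04 without control replicate 1.

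That ratio rested on Chrm4, which made up 74.4% of the D1-type sum in control replicate 1 and 23.4 to 32.3% elsewhere. With Chrm4 and Ebf1 left out, the D1-type over D2-type difference between 4-AP and control was 0.34 with all libraries, opposite in sign, and -0.001 without control replicate 1. As a ratio within each library, Drd1 made up 77.0, 74.5 and 73.7% of the reads of Drd1 and Drd2 in the 4-AP libraries. In the controls it made up 54.5, 79.8 and 77.6%. The exact Clopper-Pearson 95% interval of control replicate 1, from 12 and 10 reads, was 32.2 to 75.6%. It reached into the intervals of all other libraries, such as 67.5 to 84.8% in 4-AP replicate 1 and 74.9 to 84.2% in control replicate 2. The 54.5% itself lay below the interval of every other library, and overlapping intervals do not show that the shares were equal. Tac1 made up 4.81, 11.7 and 11.6% of the reads of Tac1 and Penk in 4-AP and 7.14, 7.43 and 6.19% in control, and the interval of control replicate 1 for it was 0.877 to 23.5%.

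**Figure D5:**
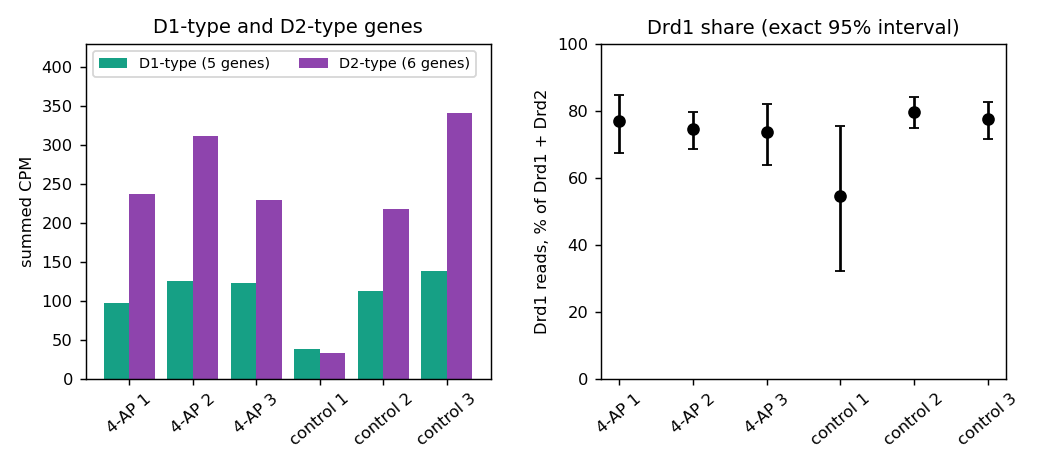
Left, summed CPM of the 5 D1-type and 6 D2-type genes in each library; right, Drd1 reads as a percent of Drd1 and Drd2 reads, with exact 95% binomial intervals. Control replicate 1 has 38.0 CPM of D1-type and 32.7 CPM of D2-type genes and the widest interval, 32.2 to 75.6%.

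Other genes of striatal neurons and of the cAMP cascade were taken from lists that hold none of the members. Of 27 other striatal genes, 26 were found in the files and 23 were tested, and 0 were called by edgeR, DESeq2 or limma-voom. At an unadjusted p under 0.05, edgeR had 5 of the 23, against 13.9% of all tested genes. Without control replicate 1, edgeR called 0 of 24, with 4 at an unadjusted p under 0.05, against 12.9% of all tested genes. On the same libraries limma-voom called 0 and DESeq2 1, Hpca. Their median log2 fold change was 0.07 with all libraries and -0.13 without control replicate 1. Control replicate 1 was lowest by at least 2-fold for 7 of the 23, against 0.782% of all tested genes. The smallest p among the higher genes was that of Oprk1, the kappa opioid receptor gene, at 1.36 on the log2 scale (SE 0.46; adjusted p = 0.160, edgeR), and 0.96 (SE 0.44) without control replicate 1. Among the lower genes it was that of Ppp1r16b, a regulatory subunit of protein phosphatase 1, at -0.49 (SE 0.16; adjusted p = 0.149), and -0.57 (SE 0.17) without control replicate 1.

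Of 41 dopamine, cAMP and DARPP-32 signalling genes that are not specific to the striatum, 39 were tested, 0 were called higher and 1 lower. Of all tested genes, 0.843% were called in either direction. DESeq2 called Adcy1 and Adcy9, and limma-voom Adcy1. The gene called by edgeR was Adcy1, a calcium-stimulated adenylyl cyclase of cortex and hippocampus, with 851, 917 and 675 CPM in the 4-AP libraries, against 2193, 1475 and 1258 CPM in the controls. Its log2 fold change was -1.01 (SE 0.19; adjusted p = 0.014, edgeR), and -0.74 (adjusted p = 0.024) without control replicate 1. The summed cortical markers, given above, were lower in 4-AP as well, and their part in the Adcy1 difference was not tested. Among the genes with a fold change above 0 the smallest p was that of Gnai2, an inhibitory G protein subunit, at 0.43 (adjusted p = 0.281), and 0.61 (adjusted p = 0.142) without control replicate 1. In contrast to Adcy5, Adcy1 was highest in control replicate 1. Of the 39 genes, 0 were lowest there by at least 2-fold, against 0.782% of all tested genes.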

How the data were processed

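For each of the 6 libraries the authors deposited gene-level read counts, whole numbers over 55604 versioned Ensembl identifiers. The submitters' processing notes name STAR 2.5.3a, featureCounts and mm10. Neither the annotation release nor the strand setting is given there. Identifiers were matched without version to GENCODE M21 (98.6% matched), which gave symbols, mm10 positions and exonic lengths, and 0 columns were left unused.

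The filter was filterByExpr, with a minimum count of 10 and a minimum total of 15. Libraries were scaled by the trimmed mean of M-values, and edgeR 4.0.16 in R 4.3.3 gave the robust quasi-likelihood test, with Benjamini-Hochberg adjustment over all tested genes and a threshold of 0.05. The procedure was tested on simulated data. Alternatives were other scalings, filters and thresholds, DESeq2 1.42.0, limma-voom (limma 3.58.1), the replicate number as a block, and left-out libraries. Intervals and floors cover counting error only. No pair of libraries had counts equal within sampling noise, so none was treated as a repeat of another; this does not show that they came from separate animals.

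The members and the lists were chosen with earlier results of these data known, so a list is described by counts and medians, with no test over it. Besides the members, the text names the called genes and the smallest p in each direction of the other striatal and signalling lists, Slc17a7, Slc17a6, and the 10 other genes lowest in control replicate 1 whose mean log2 CPM reached 1. A gene that this rule names is not reported here. The marker genes Lct, Tdo2, Prox1, Fibcd1, Zbtb20, Wfs1, Neurod2, Nrgn, Slc1a2 and Slc6a11 were named after their values were seen. So were Oxt, Avp, Trh, Pomc, Hcrt, Pmch, Gal, Sim1, Ghrh and Kiss1, and Hpca and Adcy9.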

Additional observations from a re-analysis of the deposited data

How the results depend on the processing

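The number of genes called, 96, became 319 under scaling by total counts, 179 with DESeq2, 328 without a filter on low counts, 55 without the robust fit and 290 at an adjusted p under 0.1, and 26 to 159 when a library was left out. Lowest were 26 without 4-AP replicate 3, 37 without control replicate 3, 41 without control replicate 2 and 52 without 4-AP replicate 1, and highest 159 without control replicate 1. Isl1 became the 1 member called under scaling by total counts (adjusted p = 0.0283, edgeR), without the filter (0.00744), with a filter of CPM above 1 in 3 libraries (0.0433), at an adjusted p under 0.1 and without 4-AP replicate 2 (0.0348). The members called were thus 0 to 1 over left-out libraries. Scaling by total counts moved the median of all genes to -0.22, and the members' median was 0.27 above it, against 0.21 above it in the comparison as reported.

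The median log2 fold change of the members, 0.21, was 0.54 with limma-voom and -0.079 without replicate 1 of both groups. With 1 library left out it was lowest without control replicate 1, at -0.14, and highest without control replicate 3, at 0.74. The D1-type to D2-type difference of -0.49 was lowest without control replicate 3, at -0.80, and highest without control replicate 1, at -0.042. It was 0.018 without replicate 1 of both groups, 0.068 as a mean of log2 CPM over the genes, and 0.34 without Chrm4 and Ebf1, an alternative chosen after seeing the data. With all libraries, the members' median was 0.22 under relative log expression scaling, 0.23 under upper quartile scaling and 0.058 under total counts. A library's scaling factor cancels in the D1-type to D2-type ratio of sums, so the choice of scaling could not change that difference.

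A replicate block was fitted because the groups share replicate numbers and the series describes its brain tissues as paired, without saying what a pair shares. Deviations of same-numbered libraries correlated at -0.00189, 0.113 and 0.0245, and 1 of 3 4-AP libraries correlated best with its own number. With 3 libraries in each group, these correlations cannot decide whether same-numbered libraries were paired. The comparison as reported has no block, and the block is given as an alternative. The replicate block called 265 genes and 1 member, Isl1 (adjusted p = 0.049, edgeR). Without control replicate 1, where the alternatives were chosen after seeing the data, it called 1 member, Arpp19 (adjusted p = 0.0212), against 0 without the block and 0 under each other alternative there.

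Some members changed sign. Under scaling by total counts these were Gprin3 (-0.016), Ppp1r1b (-0.038), Foxp1 (-0.025), Gng7 (-0.017), Rasd2 (-0.15), Meis2 (-0.055) and Ankrd63 (-0.043). With limma-voom they were Gpr6 (0.22), Syndig1l (0.40), Ptpn5 (0.0086) and Dclk3 (0.10). Rasd2 was -0.020 without the filter and -0.0014 with the filter on CPM above 1, and under the replicate block Syndig1l was 0.14 and Dclk3 0.041. Without replicate 1 of both groups the values were Drd1 -0.24, Adora2a -0.062, Gprin3 -0.074, Ppp1r1b -0.33, Rgs9 -0.049, Foxp1 -0.083, Gng7 -0.14, Adcy5 -0.035, Rasd2 -0.31, Rarb -0.012, Meis2 -0.23, Scn4b -0.22, Sh3rf2 -0.20 and Ankrd63 -0.30.

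When 1 library was left out, the lowest value was without control replicate 1 and the highest without control replicate 3 for most of the members that changed sign: Drd1 (-0.31 to 0.74), Adora2a (-0.16 to 1.27), Gpr6 (-0.85 to 0.41), Gprin3 (-0.14 to 0.39), Ppp1r1b (-0.40 to 0.86), Rgs9 (-0.15 to 0.85), Pde10a (-0.086 to 0.90), Foxp1 (-0.072 to 0.44), Gng7 (-0.21 to 0.55), Adcy5 (-0.13 to 0.74), Rasd2 (-0.38 to 0.65), Meis2 (-0.13 to 0.36), Scn4b (-0.29 to 0.82), Syndig1l (-0.56 to 0.84), Pde1b (-0.091 to 0.64), Actn2 (-0.023 to 0.90), Ptpn5 (-0.23 to 0.22), Ankrd63 (-0.26 to 0.46) and Dclk3 (-0.34 to 0.24). The others were Strip2 (-0.12 to 0.60) and Zfp503 (-0.32 to 0.059). None of these members passed the test. The causes were not tested. Members with few reads, such as Ido1, Six3, Isl1, Tac1 and Sh3rf2, are limited by depth.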
